A study of Pyrus pyrifolia with 6 samples.

Results

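The 6 genes described here encode plasma membrane intrinsic proteins (PIPs), the aquaporins that sit in the outer membrane of plant cells. They are a fixed list of rows of the authors' table of differing genes, and the table describes 1 of them as a probable PIP1-4 and 5 as probable PIP2-5. They are 6 of the 4291 genes for which the table gives values in each library, and 6 of the 10 listed genes described as PIPs. Their mRNA was measured by RNA sequencing in pulp of fruit from Akibae pear (Pyrus pyrifolia), grown in a university orchard. The fruit had received boron (3 libraries) or a control treatment labelled CK (3 libraries). The sources used here do not give the dose, the form of boron, the fruit age or the nature of the control. Whether the libraries within a group stem from different fruits or trees is not labelled, and the tests therefore reflect a spread that may be technical.

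Aquaporins are membrane proteins that form pores, each subunit with a channel of its own, through which water moves down its gradient. Plant PIPs fall into a PIP1 and a PIP2 group: in maize, PIP1 proteins reach the plasma membrane readily only when they assemble with PIP2 proteins, which carry water well by themselves. Some plant PIPs also pass small uncharged solutes, and boric acid is among those tested, although the channels best known for boric acid belong to another aquaporin group, the NIPs. In fruit pulp, cell growth depends on water entering across this membrane and then the vacuole membrane, where the TIP aquaporins sit.

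The listed genes held between 1914312 and 2056668 reads per library. Levels are normalized counts, meaning reads in the gene divided by 1 size factor per library, and are given as mean ± SD over n = 3 libraries. Differences between groups are boron minus control on log2(normalized count + 1), with the SE and the adjusted p from limma fitted to all 4291 listed genes (two-sided, Benjamini-Hochberg, threshold 0.05). All 6 genes were higher with boron and passed this test. That count carries little information about PIPs, because 73.0% of all listed genes (3131) also passed with boron higher, and a gene entered the list only if the authors had called it different on these libraries. In the wider set of 42194 genes that the authors scored, 7.46% (3146) were listed as higher with boron. In 5 of the 6 genes every boron library lay above every control library, against 72.0% of all listed genes (3088).

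PIP1-4 had the highest level of the listed PIP genes. Per kilobase it made up 62.0% ± 0.805 of the level of the 10 listed PIPs with boron and 68.6% ± 0.832 in controls. LOC103936441 (probable aquaporin PIP1-4; scaffold NW_008988054.1, 1008287 to 1009937, minus strand, length 1241 bases) had 17621.5, 16986 and 19815 normalized counts in boron libraries 1 to 3. Its control libraries held 6574, 5776 and 5389.7. The groups did not overlap, and the lowest boron library was 2.58 times the highest control library. The means were 18141 ± 1484 with boron and 5913 ± 604 in controls, a 3.07-fold ratio, and the log2 difference was 1.62 ± 0.08 (SE, adjusted p = 1.90e-08). Per kilobase of gene length it ranked 22nd of the 4291 listed genes over all 6 libraries.

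The second most abundant of the 6 genes was a PIP2, the group that in maize and Arabidopsis carries water without a PIP1 partner. LOC103937187 (probable aquaporin PIP2-5; scaffold NW_008988872.1, 80142 to 83864, minus strand, length 1236 bases) had 3347, 3113 and 3722 normalized counts with boron. It had 952, 973 and 889 in the controls. The boron libraries were all above the controls, and the control libraries lay close together. The means were 3394 ± 307 and 938 ± 43.8, a 3.62-fold ratio, with a log2 difference of 1.85 ± 0.08 (SE, adjusted p = 8.34e-09).

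The remaining 4 genes, all described as PIP2-5, were scarce, and their values rest on few reads. LOC103934822 (probable aquaporin PIP2-5; scaffold NW_008988053.1, 1265437 to 1267369, minus strand, length 1158 bases) had 69.8, 84.7 and 70.7 normalized counts with boron, from 72, 94 and 72 reads. Its controls had 4.99, 6.24 and 3.24, from 5, 6 and 3 reads. The groups were far apart, with the lowest boron library 11.2 times the highest control. The ratio of the means, 75.1 ± 8.40 over 4.82 ± 1.51, was 15.6, and the log2 difference was 3.74 ± 0.36 (SE, adjusted p = 3.35e-06). Among the listed genes with a log2 difference above 0, 10.2% had a larger one.

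LOC103936639 (probable aquaporin PIP2-5, transcript variant X1; scaffold NW_008988830.1, 52334 to 57186, minus strand, length 1551 bases) was the member whose groups overlapped. It had 17.4, 83.8 and 36.3 normalized counts in boron libraries 1 to 3 and 3.99, 17.7 and 1.08 in control libraries 1 to 3. Library 2 was the highest of its group in both treatments, and the lowest boron library fell just under the highest control. The means were 45.9 ± 34.2 and 7.59 ± 8.87, and the log2 difference of 2.74 ± 0.79 passed the limma test (adjusted p = 0.00622). With a pseudocount of 10 in place of 1 the log2 difference was 1.60 (limma, adjusted p = 0.0201). Boron library 2 held 62.8% of its 148 boron reads. Without the libraries numbered 2 of both groups, a choice made after its values were seen, the log2 difference was 3.03 (limma, adjusted p = 0.00739). Its spread within groups, an SD of 1.37 on the log2 scale, was exceeded by 1.37% of listed genes.

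LOC103937541 (probable aquaporin PIP2-5; scaffold NW_008988904.1, 60791 to 62686, plus strand, length 1119 bases) had 23.3, 18.0 and 27.5 normalized counts with boron and 5.98, 6.24 and 0 in the controls. Control library 3 had no read of it, and the others had 6 each. The means were 22.9 ± 4.73 and 4.08 ± 3.53, a ratio of 5.62, with a log2 difference of 2.67 ± 0.73 (SE, limma adjusted p = 0.00467). Without control library 3 the log2 difference fell to 1.73 and still passed (limma, adjusted p = 0.00357). It was 1.25 with a pseudocount of 10 and 3.85 with 0.1, passing in both (limma, adjusted p = 0.000171 and 0.0408).

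LOC103941235 (probable aquaporin PIP2-5, transcript variant X1; scaffold NW_008989285.1, 82234 to 87638, minus strand, length 1499 bases) was detected with boron and not at this depth in the controls. It had 3, 11 and 7 reads in the boron libraries, or 2.91, 9.92 and 6.87 normalized counts, and 0 reads in each control library. A count of 0 over the control group allows up to 3 reads, a mean of 1.04 normalized counts. The boron mean of 6.56 ± 3.51 was 6.32 times that limit. The limit covers counting error in the controls only, and the boron mean itself rests on 21 reads. It passed the limma test (adjusted p = 0.000177), and its fitted log2 difference depended on the pseudocount, from 0.71 with a pseudocount of 10 to 5.89 with 0.1.

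**Figure D1:**
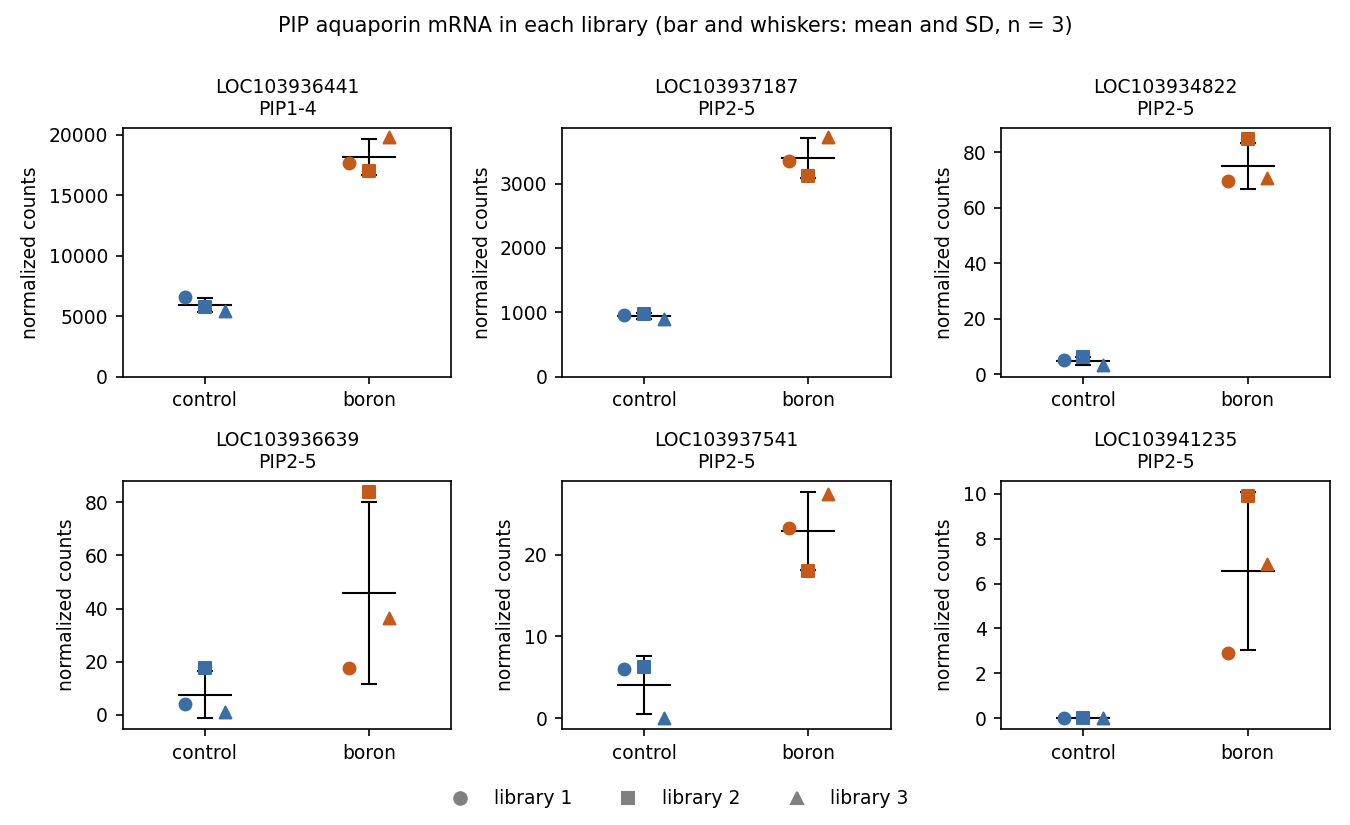
Normalized counts of each of the 6 PIP genes by library, with a separate linear axis for each gene; marker shapes stand for library numbers 1 to 3, and bars and whiskers for the mean and SD of n = 3. The groups are apart in 5 genes, and in LOC103936639 the library numbered 2 is highest in both groups.

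The spread of the differences among the 6 genes was wide. Their median log2 difference was 2.71, against 1.62 over all listed genes. It was 2.67 with LOC103941235 placed at 6.32 times its control limit. PIP1-4 lay at the median of all listed genes, 0.0013 above it, and LOC103937187 lay 0.23 above it. That median includes the genes lower with boron. Among the listed genes with a log2 difference above 0, 68.1% had a larger one than PIP1-4 and 59.5% a larger one than LOC103937187. The 4 scarce genes lay further above the median of all listed genes, led by LOC103934822 at 2.12 above it. Scarce genes need a larger difference than abundant ones to enter a list of called genes, so these sizes do not rank the genes by response.

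Per kilobase, which allows levels of different genes to be compared, PIP1-4 had 14618 ± 1196 normalized counts with boron and 4765 ± 487 in controls. LOC103937187 followed at 2746 ± 249 and 759 ± 35.5. A wide gap separated both from LOC103934822, at 64.8 ± 7.25 and 4.17 ± 1.30, LOC103936639, at 29.6 ± 22.1 and 4.89 ± 5.72, and LOC103937541, at 20.5 ± 4.23 and 3.64 ± 3.16. LOC103941235 was lowest, at 4.38 ± 2.34 with boron. With boron, LOC103936639 did not differ beyond its spread from LOC103937541, and in the controls LOC103934822, LOC103936639 and LOC103937541 all lay within each other's spread.

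Summed per kilobase, the 6 genes gave 17001, 16356 and 19092 normalized counts in the boron libraries and 6080.2, 5464 and 5066 in the controls. The boron sum of 17483 ± 1430.3 was 3.16 times the control sum of 5537 ± 511. The groups did not overlap, and the exact two-sided permutation test gave p = 0.1, the smallest that 3 against 3 libraries can give. As a share of the reads in all listed genes, the 6 genes took 1.16% ± 0.0847 with boron and 0.336% ± 0.0332 in controls. In bulk pulp, more cells that express a gene and more mRNA per cell cannot be told apart.

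The make-up of this sum differed little in size. PIP1-4 took 83.5%, 83.7% and 83.6% of it in the boron libraries and 87.1%, 85.2% and 85.7% in the controls. Its share was thus lower in all 3 boron libraries, 83.6% ± 0.0841 against 86.0% ± 1.00 (exact permutation test p = 0.1, adjusted over the 6 genes 0.15). LOC103937187 took 15.7% ± 0.272 with boron and 13.8% ± 0.948 in controls, without overlap (exact permutation p = 0.1, adjusted 0.15). The 4 scarce genes together took 0.689% ± 0.199 and 0.227% ± 0.172, again without overlap. Of these, LOC103934822 went from 0.0749% ± 0.0220 in controls to 0.374% ± 0.0661 with boron (exact permutation p = 0.1, adjusted 0.15), while the shares of LOC103936639 and LOC103937541 overlapped between groups (exact permutation, adjusted p = 0.5 and 0.24). No share could pass the threshold in a design of this size. A size factor per library leaves shares as they are, but quantile normalization, which gives all libraries the same distribution of values, does not. Under it PIP1-4 took 85.4% ± 1.39 with boron and 83.9% ± 0.844 in controls, LOC103937187 took 14.2% ± 1.42 and 15.6% ± 0.780, and the direction of both turned. The shares of LOC103936639, LOC103937541 and LOC103941235 also turned. This check was added after the data were seen.

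**Figure D2:**
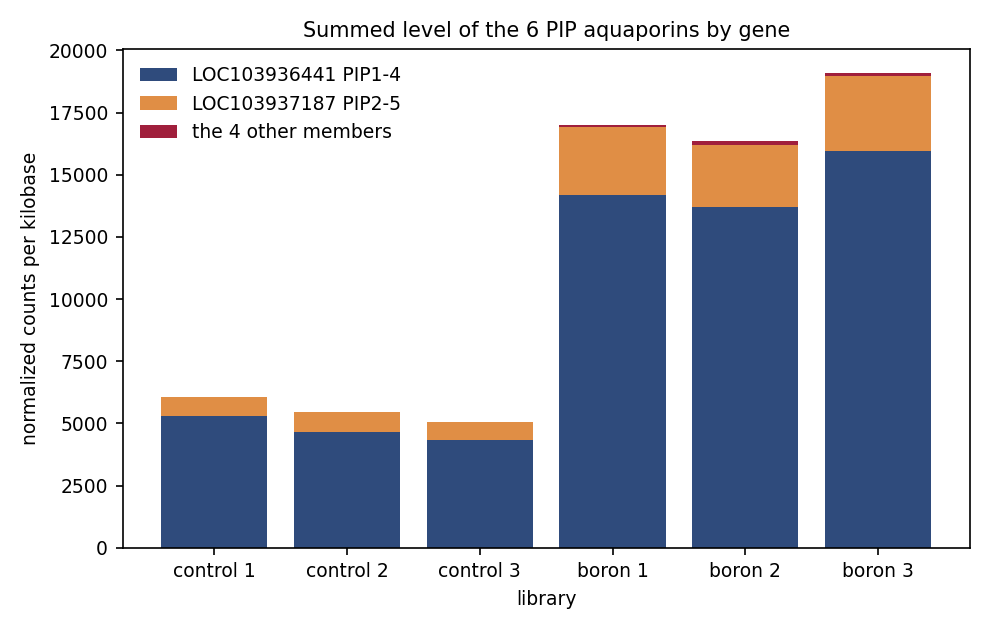
Summed level of the 6 PIP genes in each library, in normalized counts per kilobase, stacked by gene from 0. PIP1-4 and LOC103937187 fill nearly all of each bar, and the boron bars, between 16356 and 19092, are above the control bars, between 5066 and 6080.2.

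Ratios between the genes within a library were compared for all 15 pairs, with the exact two-sided permutation test adjusted over the 15. In 6 pairs the groups did not overlap, and the smallest adjusted p was 0.25, so none passed. The log2 ratio of PIP1-4 to LOC103937187 was 2.42 ± 0.03 with boron and 2.65 ± 0.12 in controls, or 5.33 ± 0.0976 against 6.28 ± 0.524 as a plain ratio per kilobase. PIP1-4 relative to LOC103934822 was lower with boron by a log2 difference of -2.12, and LOC103937187 relative to LOC103934822 by -1.88. These shrank to -0.90 and -0.68 with a pseudocount of 10, and to -0.22 and -0.38 with quantile normalization, under which the log2 ratio of PIP1-4 to LOC103937187 turned to 0.16. The other 3 pairs without overlap all involve LOC103941235, which has no control reads, and their direction turned with the pseudocount.

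The table lists 4 further PIP genes, all higher with boron, beside the 73.0% of all listed genes that passed with boron higher. PIP2-8 (LOC103965591) had 3860, 3759 and 3739 normalized counts with boron and 703, 614 and 554 in controls, with a log2 difference of 2.61 ± 0.09 (SE, limma adjusted p = 1.57e-09). In per-kilobase level it exceeded LOC103937187 with boron, at 3206 ± 55.0, and not in controls, at 528 ± 63.4. PIP1-1-like (LOC103957395) had 2891 ± 528 against 601 ± 56.6 normalized counts, and PIP2-2 (LOC103956770) had 1598 ± 97.9 against 655 ± 34.8. PIP1-2 (LOC103957407), a short model of 492 bases, had 88.4 ± 13.3 against 32.9 ± 12.1. All 10 listed PIP genes together summed to 23563 ± 1637 with boron and 6938 ± 623 in controls per kilobase, a ratio of 3.40 (exact permutation p = 0.1).

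The other listed aquaporins were 7 TIPs and a SIP, a type found in internal membranes. Of these 8, 7 were higher with boron and 1 lower, beside the 73.0% of all listed genes that passed with boron higher. The counts were the same with TMM and median-of-ratios scaling, which set a new factor per library from the listed genes. They were 6 and 1 with quantile normalization. Of all listed genes, 33.4%, 34.6% and 35.5% passed with boron higher under TMM, median-of-ratios and quantile scaling. TIP1-1-like (LOC103941273) had 24396, 25230 and 20560 normalized counts with boron and 3209, 3324 and 3442 in controls, a log2 difference of 2.81 ± 0.07 (SE, limma adjusted p = 2.93e-10). Per kilobase, PIP1-4 stood above it in every control library and below it in every boron library. The ratio of PIP1-4 to TIP1-1-like was 1.88, 1.59 and 1.44 in the controls and 0.663, 0.618 and 0.885 with boron (exact permutation p = 0.1). This pair was chosen after its values were seen, and its ratio was not computed under quantile normalization. TIP1-3-like (LOC103930703) rose from 116 ± 10.4 to 1831 ± 155, with a log2 difference of 3.98 ± 0.11 (limma adjusted p = 3.70e-10). The lower one, LOC103938012 (TIP-type), had 16.1 ± 3.89 with boron and 63.4 ± 6.29 in controls.

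**Figure D3:**
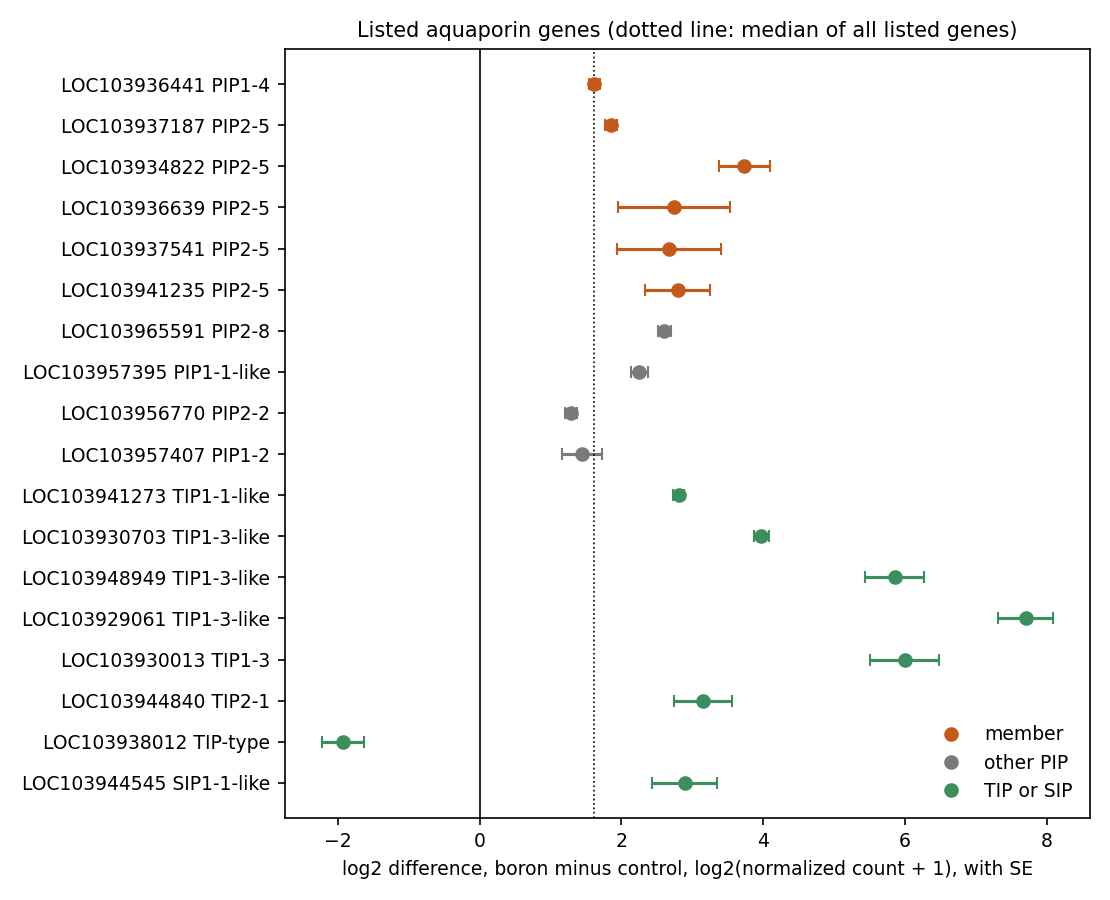
Log2 differences (boron minus control, log2 of normalized count + 1) with SE for the 18 listed aquaporin genes, in 3 colours for the 6 PIP genes described here, the other PIPs, and the TIPs and SIP; the dotted line is the median of all listed genes, 1.62. PIP1-4 lies on that line, and 17 of the 18 genes are right of 0, beside the 73.0% of all listed genes that passed with boron higher.

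Genes chosen by description as possible partners of PIPs did not move in a single direction. Whether they act on or with PIPs in pear was not tested. Of 3 listed calcium-dependent protein kinases, a family that in other plants phosphorylates PIP2 proteins and so affects their opening, 2 were lower with boron and 1 higher, and the higher one missed the threshold under each of the 3 other scalings. CDPK32-like (LOC103963086) had 88.2, 85.6 and 189 normalized counts with boron against 401, 364 and 855 in controls, and it was highest in library 3 of each group. CDPK11-like (LOC103937716) had 51.5 ± 13.8 against 106 ± 5.34. Of 3 syntaxins, proteins of vesicle fusion, 2 were higher and 1 lower, with 1 higher under TMM and median-of-ratios scaling and 0 under quantile normalization. Syntaxin-71-like (LOC103927828) had 27.0 ± 13.3 with boron and 147 ± 14.95 in controls, and KNOLLE (LOC103956191), the syntaxin of the cell plate in Arabidopsis, had 24.2 ± 7.65 and 5.60 ± 2.64. The 2 listed plasma membrane proton pumps, which energise solute uptake, went opposite ways. Plasma membrane ATPase 4-like (LOC103938711) had 80.4 ± 11.1 with boron and 1507 ± 19.8 in controls, a log2 difference of -4.22 ± 0.12 (limma adjusted p = 4.78e-10), and ATPase 1-like (LOC103928497) had 622 ± 55.2 and 120 ± 7.26, a log2 difference of 2.36 ± 0.12 (limma adjusted p = 2.58e-08).

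Of the 2 listed boron transporters, which move borate across membranes, boron transporter 2 (LOC103956856) was lower, at 234 ± 28.2 against 3601 ± 111, and boron transporter 6 (LOC103927569) was higher, at 41.0 ± 8.42 against 13.2 ± 5.67, a call lost under all 3 other scalings. Of 12 proteins of water deficit, 10 were higher and 2 lower. With TMM or median-of-ratios scaling 3 were higher and 3 lower, and with quantile normalization 5 and 2. RD22-like (LOC103962567), whose Arabidopsis namesake responds to drying, had 5060.3 ± 324 with boron and 15.5 ± 4.50 in controls, and ERD15-like (LOC103941097) had 1011 ± 167 and 498 ± 26.2. Of 14 expansins, proteins that loosen cell walls during growth, 12 were higher, 1 was lower and 1 did not pass, and the number higher was 8, 9 and 8 with TMM, median-of-ratios and quantile scaling. EXP5, described as expansin-A1, had 12352 ± 221 and 2296 ± 144, and LOC103951053 (expansin-A10) had 1909 ± 145 and 594 ± 15.2. These counts stand beside the 73.0% of all listed genes that passed with boron higher under the authors' scaling. With TMM, median-of-ratios and quantile scaling that share was 33.4%, 34.6% and 35.5%. The median log2 differences under the authors' scaling were 1.53 for water deficit proteins and 2.29 for expansins, against 1.62 for all listed genes.

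Markers of other tissues that a pulp sample could hold also differed between the groups. All 6 listed peel markers were higher with boron, with a summed level of 1192 to 1264 normalized counts in boron libraries and 161 to 203 in controls. The number was 6, 6 and 4 of 6 with TMM, median-of-ratios and quantile scaling. Most of the peel sum came from 2 genes described as non-specific lipid-transfer protein 2 or 2-like. LOC103950629 had 643 ± 17.6 with boron and 84.6 ± 7.95 in controls, and LOC103948480 had 327 ± 29.6 and 78.3 ± 12.6. All 9 vascular markers were higher, at 653 to 733 against 153 to 180. Under those 3 scalings 4, 4 and 3 of the 9 vascular markers passed with boron higher. The 2 most abundant of these differed widely in size. PHLOEM PROTEIN 2-LIKE A1-like (LOC103946488) had 300 ± 45.7 normalized counts with boron and 141 ± 11.1 in controls, a log2 difference of 1.07. SIEVE ELEMENT OCCLUSION B-like (LOC103938158) had a single read in each control library and 241 ± 11.4 normalized counts with boron, a log2 difference of 6.89. Of 6 seed markers 5 were higher and 1 lower, and 3, 4 and 3 were higher under those scalings. Their summed level was lower with boron, at 1905 to 2044 against 2309 to 2590. The lower gene, legumin B-like (LOC103946296), was the most abundant of them, at 931 ± 104 with boron and 2235 ± 167 in controls. Late embryogenesis abundant protein D-29 (LOC103944693) was higher, at 660 ± 129 against 106 ± 29.6. Late embryogenesis abundant genes are in this list and in the water deficit list. The marker counts under the authors' scaling stand against the 73.0% of listed genes that passed with boron higher. Those under TMM, median-of-ratios and quantile scaling stand against 33.4%, 34.6% and 35.5%. Since PIPs are abundant in vascular tissue of many plants, these values belong beside the PIP differences. Their part in the result was not tested.

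Across the 6 libraries the genes followed the difference between groups, and LOC103936639 and LOC103937541 did so least. The Pearson r between log2 values was 0.996 for PIP1-4 with LOC103937187 and 0.763 for LOC103937541 with LOC103941235, over 6 libraries that form 2 groups. Likeness in profile was common in this list: 26.2% of the 1684 other listed genes with a mean of at least 100 normalized counts had r of 0.95 or more with the mean profile of the 6 genes, and 51.2% with PIP1-4. The 5 nearest to the mean profile were LOC103936185 (18.1 kDa class I heat shock protein-like, r = 0.997), LOC103963354 (disease resistance protein RGA3, 0.996), LOC103957411 (U-box protein 4-like, 0.992), LOC103967756 (dioxygenase AOP1, 0.992) and LOC103959968 (cytochrome P450 71A14-like, 0.991). The nearest to PIP1-4 were LOC103959532 (Myb-like activator), LOC103964327 (heat shock protein 83-like), LOC103956592 (chlorophyll binding protein CP26), EG4 (endoglucanase 8) and LOC103942088 (subtilisin-like protease SBT1.6), each with r of at least 0.999.

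The authors' second deposited table gives each of 42194 genes a signal-to-noise score, boron minus control, on the authors' scaling. Of these scores 16512 were above 0, 14072 below and 11610 at 0. For the 4070 listed genes with both means above 0, the score equalled the difference of the means over the sum of the SDs, each SD counted as at least 0.2 of its mean, within a tolerance of 1e-05. In that table LOC103934822 scored 4.25, LOC103937187 scored 2.83, PIP1-4 (LOC103936441) scored 2.54 and LOC103937541 scored 2.28. LOC103936639, with its overlapping groups, scored 0.888. LOC103941235 scored 0.860, but its control mean is 0, so it is outside the genes for which that formula was checked. Of all scored genes, 0.372% reached the score of LOC103934822 in the authors' deposited table, 3.02% that of PIP1-4 and 13.6% that of LOC103936639. For PIP1-4 and LOC103937187 both SDs were under the least share, so their scores reflect the fold change and not the spread.

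**Figure D4:**
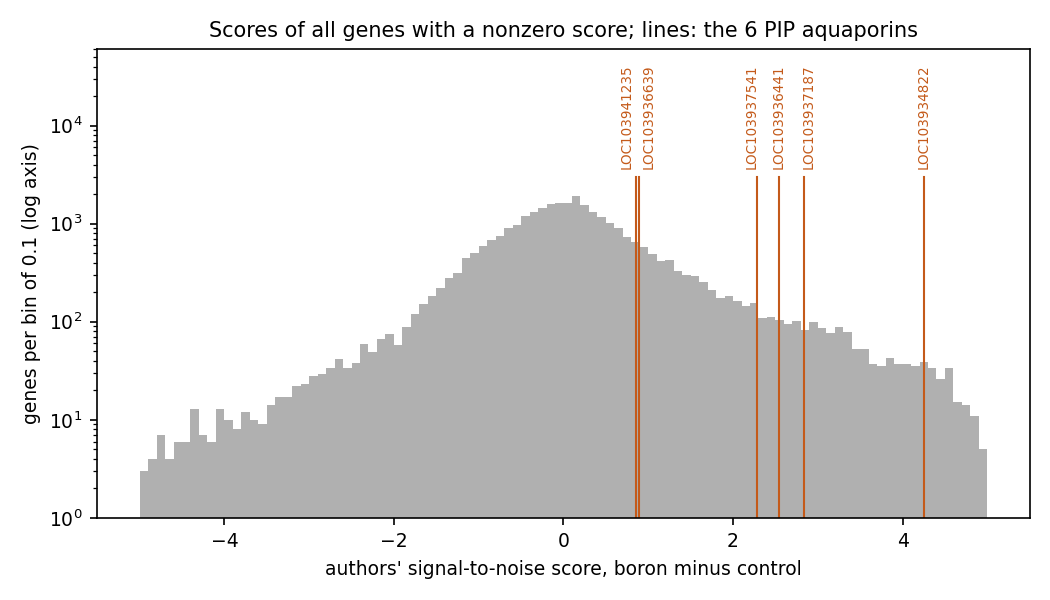
Distribution of the authors' signal-to-noise scores over all genes with a nonzero score (genes per bin of 0.1, log axis), with a line at each of the 6 PIP genes. The PIP scores run from 0.860 to 4.25, all right of 0.

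The size of the PIP differences depends on how the libraries are scaled to each other. The listed genes are mostly higher with boron, and scalings fitted to them lower the median difference. With TMM over the listed genes the median listed difference moved by -1.40 on the log2 scale, to 0.22. PIP1-4 then stood at 0.18 and missed the threshold (limma, adjusted p = 0.0905), LOC103937187 at 0.41 and LOC103934822 at 2.42, and 3 of the 6 genes passed with boron higher, against 33.4% of listed genes. With median-of-ratios factors 4 of the 6 passed, PIP1-4 at 0.22 among them (limma, adjusted p = 0.0330), against 34.6%. With quantile normalization 3 passed, PIP1-4 at 2.00 among them, against 35.5%. LOC103936639 and LOC103937541 missed the threshold under all 3 of these scalings, LOC103941235 missed it under quantile normalization, and no member changed sign under any of them. PIP2-2 did change sign, to -0.15 with TMM and -0.11 with median-of-ratios factors.

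**Figure D5:**
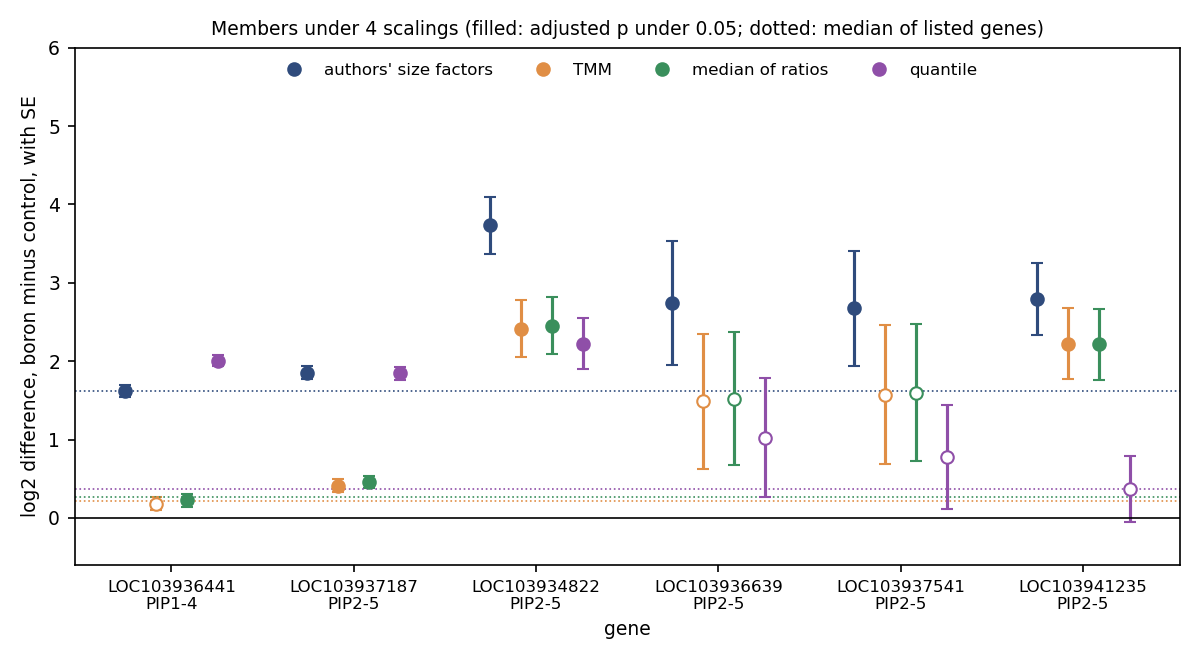
Log2 difference (boron minus control) with SE of each of the 6 PIP genes under the authors' scaling, TMM, median-of-ratios and quantile normalization, with filled points where the adjusted p was under 0.05 and dotted lines at the median of listed genes. LOC103937187 and LOC103934822 are filled under all 4 scalings, and every point is above 0.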

How the data were processed

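Pulp RNA (Trizol) went into NEBNext Ultra libraries, per the labels' protocols. HISAT2 is named without a version, per the submitters' processing notes; the sources used here do not give the read counter, its strand setting, the genome build or the authors' test. The deposited library values (signal) are normalized counts: within 0.01, each library's 4291 values came out as whole multiples of a step, which returned the reads. The authors' size factors ran from 0.926 to 1.11. The authors also deposited log2 fold changes and p-values, and the listed genes reach down to an absolute fold change (log2) of 1.00 and up to an adjusted p of 0.0499. Gene length in bases, coordinates and descriptions are as deposited by the authors. The second deposited table holds a score for 42194 gene identifiers without descriptions, so PIP genes outside the list were not analysed here.

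Raw counts had been planned for. Because the values were normalized, limma 3.58.1 (trend, robust, R 4.3.3) was fitted to log2(normalized count + 1) over the 4291 genes. Its code was checked on simulated data in which few genes changed, equally up and down. The listed genes are unlike that, so the check does not bear on their adjusted p-values. Exact permutation tests used SciPy 1.17.1. The PIP genes and the gene lists were chosen with earlier results of these data known. Named genes were the 6 PIPs, the other listed PIPs, the 2 most abundant passing members of each list and the 5 nearest profiles; LOC103938012, LOC103950795, LOC103955769 and the PIP1-4 to TIP1-1-like ratio were chosen after their values were seen. The PIP2-5 genes share a description, and how reads of near-identical copies were divided is not known. The members lie on 6 different scaffolds and no other listed gene lies within their spans. Alternatives were pseudocounts of 0.1 and 10, mean filters of 10 and 100, other scalings, a replicate block, and leaving out each library.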

Additional observations from a re-analysis of the deposited data

How the results depend on the processing

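Under 15 alternative settings no PIP member changed sign. The members that passed with boron higher numbered 6 with either other pseudocount, with each library left out and without the libraries numbered 2, and 5 with a mean of at least 10, which removes LOC103941235. They numbered 2 with a mean of at least 100, which removes the 4 scarce genes, 3 with TMM, 4 with median-of-ratios factors and 3 with quantile normalization. Listed genes passing with boron higher numbered 3131 as reported, 3095 to 3109 with a library left out, 1049 with a mean of at least 100, 1433 with TMM, 1486 with median-of-ratios factors and 1522 with quantile normalization. These scalings were fitted to a list chosen for its differences. PIP2-2 reversed to -0.1524 with TMM and -0.1075 with median-of-ratios factors. The log2 difference of the summed level was 1.66, 1.60 to 1.73 with a library left out, 0.22 with TMM, 0.265 with median-of-ratios factors and 1.98 with quantile normalization. With a pseudocount of 10 the log2 ratios to LOC103941235 reversed to 0.9118 for PIP1-4 and 1.136 for LOC103937187, and with 0.1 to -1.918 for LOC103934822, as a gene at 0 reads takes its control value from the pseudocount. LOC103936639 ranged from 2.01 to 3.59 on the log2 scale with a library left out. With quantile normalization, an alternative added after the data were seen, the difference in share reversed for PIP1-4 (1.475 percentage points), LOC103937187 (-1.335), LOC103936639 (-0.0818), LOC103937541 (-0.09454) and LOC103941235 (-0.00993), and the log2 ratio of PIP1-4 to LOC103937187 (0.1586) and those of PIP1-4 (1.637) and LOC103937187 (1.479) to LOC103941235. The cause was not tested. Depth limits the 4 scarce members, which had 0 to 17 reads in each control library. A planned count-model test on recovered reads was not run.

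With the replicate block, 6 members and 3127 listed genes passed with boron higher, against 6 and 3131 without it. Deviations of same-numbered libraries correlated at -0.0133, 0.0256 and -0.0389, within the -0.0409 to 0.0521 of differently numbered ones. With 3 libraries per group, these correlations cannot decide whether same-numbered libraries share a tree, plot or batch, and no label states it.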

Other observations

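A search made after LOC103936639 was seen to be highest in library 2 of both groups asked which listed genes, with a mean of at least 10 normalized counts, were at least 2-fold above the other libraries in the same-numbered library of both groups. There were 3 such genes for number 1, 2 for number 2 and 4 for number 3. Of all 4291 listed genes, 11.4%, 11.9% and 13.0% were highest in the library of number 1, 2 and 3 in both groups. Counts of 2-fold genes for differently numbered libraries are not given here, and whether the hits exceed chance was not tested. The second gene for number 2 was LOC103950795 (BRANCHLESS TRICHOME, a regulator of trichome branching in Arabidopsis), with 21.3, 48.7 and 23.6 normalized counts in boron libraries 1 to 3 and 0.997, 4.16 and 1.08 in control libraries 1 to 3. Among those for number 3 were CDPK32-like (LOC103963086) and LOC103955769 (receptor-like kinase FERONIA), with 13.6, 13.5 and 29.4 with boron and 0, 1.04 and 6.48 in controls.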
